A study of Drosophila melanogaster with 4 samples.

Results

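The genes described here are 9 *Drosophila melanogaster* genes of eye pigment synthesis, purine breakdown and body colour, several of which serve as visible markers of laboratory stocks. They were chosen by name, as the probe sets that the array's annotation gives to *ry*, *cn*, *v*, *w*, *st*, *bw*, *pr*, *Hn* and *y*. Of the 9, 6 had a named probe set, with 7 probe sets in all, out of 10844 genes with a named probe set on the array. The annotation used here named no probe set for *v*, *w* or *Hn*, and these 3 genes were not analysed here. Transcripts were measured in whole embryos on 4 one-colour Affymetrix arrays. The tested embryos came from mothers with *how* germline clones and lacked both the maternal and the zygotic product of *how* (*held out wings*, a gene for an RNA-binding protein). Homozygous mutants were picked from their siblings under a fluorescence microscope by means of a GFP balancer. The wild-type embryos were of the yw stock, which is named for mutations in *y* and *w*. In both groups eggs were laid over 2 h and kept at 25 °C until the embryos were 3 to 5 h old. Each group had 2 arrays, each hybridised with pooled RNA (5 extractions, with some 100 embryos in each). The labels give neither the *how* allele nor the other markers, balancers or transposons of the stocks, so loss of *how* and other differences between the stocks cannot be told apart.

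Fly eyes are coloured by brown ommochromes and red pteridines (drosopterins), which are made by separate pathways and stored in pigment granules related to lysosomes. Ommochromes are made from tryptophan: *v* encodes tryptophan dioxygenase, which opens the ring, and *cn* (*cinnabar*) encodes the kynurenine hydroxylase that gives hydroxykynurenine. Pteridines are made from GTP, with *pr* (*purple*) encoding pyruvoyl-tetrahydropterin synthase, and the same route supplies the tetrahydrobiopterin cofactor used by the phenylalanine hydroxylase that *Hn* encodes. *ry* (*rosy*) encodes xanthine dehydrogenase, a molybdenum enzyme that turns hypoxanthine and xanthine into urate and also oxidises pterins. *w*, *st* (*scarlet*) and *bw* (*brown*) encode ABC transporters that load pigment precursors into the granules, with White pairing with Scarlet for ommochromes and with Brown for pteridines. *y* (*yellow*) encodes a secreted protein needed for black melanin in the cuticle. Wild-type copies of *w* and *ry* are widely used as markers on transposons in laboratory stocks.

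Median signals of the gene probe sets were 75.5 to 82.1 over the 4 arrays, and every array had been scaled to a trimmed mean of 250.04. Log2 signals correlated over the tested probe sets with r = 0.966 for the mutant pair, 0.963 for the wild-type pair and 0.926 to 0.938 for pairs that mix the groups. Genes of the early zygotic embryo, such as *sna*, *Kr* and *odd*, were present in both groups, with summed signals over 10 genes of 5737 and 4855 in mutants, against 5646 and 5714 in wild type, and in limma 0 of the 10 changed (0 at an unadjusted p under 0.05). Late muscle and cuticle genes were a list drawn up with their fall in these data known. They summed to 556 and 667 over 7 genes in mutants, against 4072 and 4165 in wild type. In limma 7 of 7 fell, where 1.37% of all genes tested fell. In mutants *Mlc1* had 14.1 and 6.53, *up* 30.4 and 20.3 and *Osi6* 20.5 and 6.7. These genes passed the filter on dim probe sets only through their wild-type signals, so the count is a description. Of 8 named maternal transcripts 4 could be tested, and 2 of these, *dhd* and *pgc*, rose in limma, where 1.87% of all genes tested rose. *pgc*, at 35.7 and 36.8 in wild type, passed that filter only through its mutant signals, so this count too is a description. Sums over the 8 were 932 and 818 in mutants, against 522 and 395 in wild type. Mutant means were higher for *dhd* (420 against 127), *pgc*, *osk*, *gnu* and *fs(1)N* and lower for *bcd*, *smg* and *png*. Markers of adult eye summed to 178 and 176 over 6 genes in mutants, against 210 and 162 in wild type, and 5 of the 6 were too dim to test. Markers of fat body summed to 199 and 167 over 3 genes in mutants, against 144 and 161 in wild type. Markers of Malpighian tubule summed to 344 and 281 over 5 genes in mutants, against 338 and 332 in wild type. Only 2 genes of the first list and 2 of the second could be tested, and 0 changed in limma. *Fbp1* alone had an unadjusted p under 0.05, where 16.4% of all genes tested had one. It passed the filter only through its mutant signals. The part of embryo age and tissue makeup in the results that follow was not tested.

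The comparison asked which of the pigment and purine genes differed between embryos lacking HOW and the yw embryos. *cn* and *ry* rose in the mutant, by 4.68-fold and 2.97-fold, while *pr*, *bw* and *y* did not pass the test and *st* was too dim to be tested. A probe set was tested if its mean log2 signal over the 4 arrays lay above the 40th percentile, which is a signal of 39.5, and a gene with several probe sets was represented by the brightest. Differences were tested with limma across all probe sets and called at a Benjamini-Hochberg adjusted p under 0.05. Thus 2 of the 5 tested genes were called, both higher, where 3.24% of all 6855 genes tested were called, 1.87% higher and 1.37% lower. The median log2 change was 0.52 over the 5 genes and 0.00 over all genes tested.

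*cn* had signals of 620 and 735 on the mutant arrays, against 137 and 152 on the wild-type arrays. The groups lay far apart, the lower mutant array being 4.07 times the higher wild-type array. The means were 678 ± 81.4 in mutants and 145 ± 10.6 in wild type (SD, n = 2 each). The log2 change of *cn* was 2.22 ± 0.18 (SE; 95% interval 1.81 to 2.64; limma adjusted p = 0.00109), and it ranked 17th of 6855 genes from the most raised. This is the ommochrome step that makes hydroxykynurenine. In RNA from whole embryos, more cells with a transcript and more transcript per cell cannot be told apart.

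*ry* had signals of 605 and 656 on the mutant arrays, against 233 and 191 on the wild-type arrays. Both mutant arrays lay above both wild-type arrays, with a ratio of 2.6 between the nearest arrays. The means were 630 ± 36.3 in mutants and 212 ± 29.6 in wild type (SD, n = 2 each). The log2 change of *ry* was 1.58 ± 0.18 (SE; 95% interval 1.17 to 1.98; limma adjusted p = 0.00386), and *ry* ranked 61st from the most raised. Without the filter on dim probe sets neither call was made (limma adjusted p = 0.11 for *cn* and 0.122 for *ry*), and in that fit 0 of 10844 genes passed and 1440 had an unadjusted p under 0.05. With 2 arrays against 2, an exact permutation test cannot give a two-sided p below 0.333, so the calls rest on the spread that limma shares across probe sets.

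**Figure D1:**
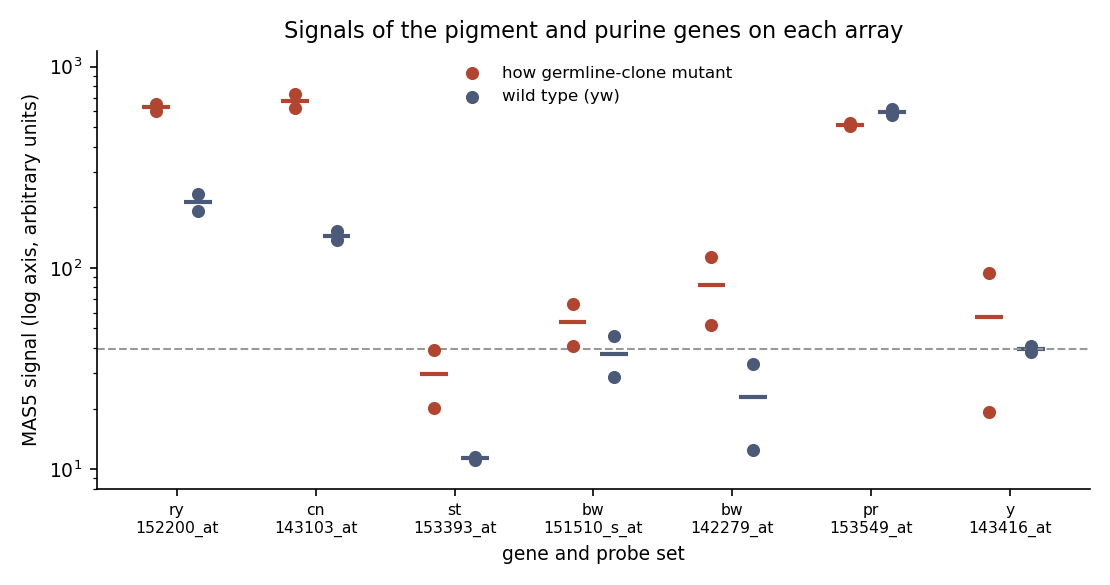
MAS5 signal (log axis, arbitrary units) of each named probe set on each array; points are arrays (n = 2 per group), short bars are group means, and the dashed line marks a signal of 39.5, the lower limit for testing a probe set. *ry* lies at 605 and 656 in mutants against 233 and 191 in wild type and *cn* at 620 and 735 against 137 and 152, whereas the arrays for *st*, *bw* and *y* lie near or below the line in at least 1 group.

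*pr*, the pteridine gene of the list with a bright probe set, had signals of 526 and 505 in mutants, against 618 and 572 in wild type. The mutant arrays both lay below the wild-type arrays, but by little. The log2 change of *pr* was -0.21 ± 0.15 (SE; 95% interval -0.54 to 0.13; limma adjusted p = 0.552), an interval that does not reach a change as large as that of *cn* or *ry*. Over all genes tested, arrays of the groups did not overlap for 47.8%, 24.4% with the mutant higher and 23.4% with the mutant lower. Among the 5 tested genes, 2 had both mutant arrays higher and 1 had both lower.

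*bw*, the transporter for pteridine precursors, had a pair of probe sets. The brighter read 66.5 and 41.1 in mutants, against 46.1 and 28.7 in wild type, and the groups overlapped. Its log2 change was 0.52 ± 0.50 (SE; 95% interval -0.63 to 1.67; limma adjusted p = 0.678). The dimmer probe set of *bw* by mean log2 signal, which fell just short of the filter, read 51.9 and 113 in mutants, against 33.3 and 12.4 in wild type. There the mutant arrays lay above the wild-type arrays, and the mutant mean was 82.5 ± 43.3 and the wild-type mean 22.8 ± 14.8 (SD, n = 2 each). Both *bw* probe sets thus had a higher mutant mean, though the brighter was not called. The dimmer was tested only in the limma fit with no filter (log2 change 1.92, adjusted p = 0.426).

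*st*, the transporter partner of White for ommochrome precursors, had signals of 39.2 and 20.1 in mutants, against 11.5 and 11.1 in wild type. The mutant arrays were the higher ones, but every value lay below 39.5, and *st* was tested only in the limma fit with no filter (adjusted p = 0.441). *y* had signals of 94.8 and 19.3 in mutants, against 41.1 and 38.0 in wild type. The mutant arrays lay on either side of the wild-type arrays, so the log2 change of 0.11 ± 0.73 (SE; 95% interval -1.59 to 1.81; limma adjusted p = 0.962) left its direction unsettled: it was 1.26 without mutant array 2 and -1.03 without mutant array 1. For *y*, whose mutation gives the yw stock part of its name, a difference of 2-fold in either direction was thus not detectable on these arrays.

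The calls for *cn* and *ry* were recomputed under 12 other settings. Each passed in 11 of the 12 and missed the threshold in the fit with no filter. Over the 12 settings the log2 change of *cn* ranged from 1.90 to 2.35 and that of *ry* from 1.38 to 1.72. With any 1 array left out, *cn* kept an adjusted p between 0.00544 and 0.0102 and *ry* between 0.0102 and 0.0401 in limma. The highest adjusted p among settings that kept a filter was 0.0213 for *cn* and 0.0453 for *ry*, in the fit without the mean-variance trend.

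**Figure D2:**
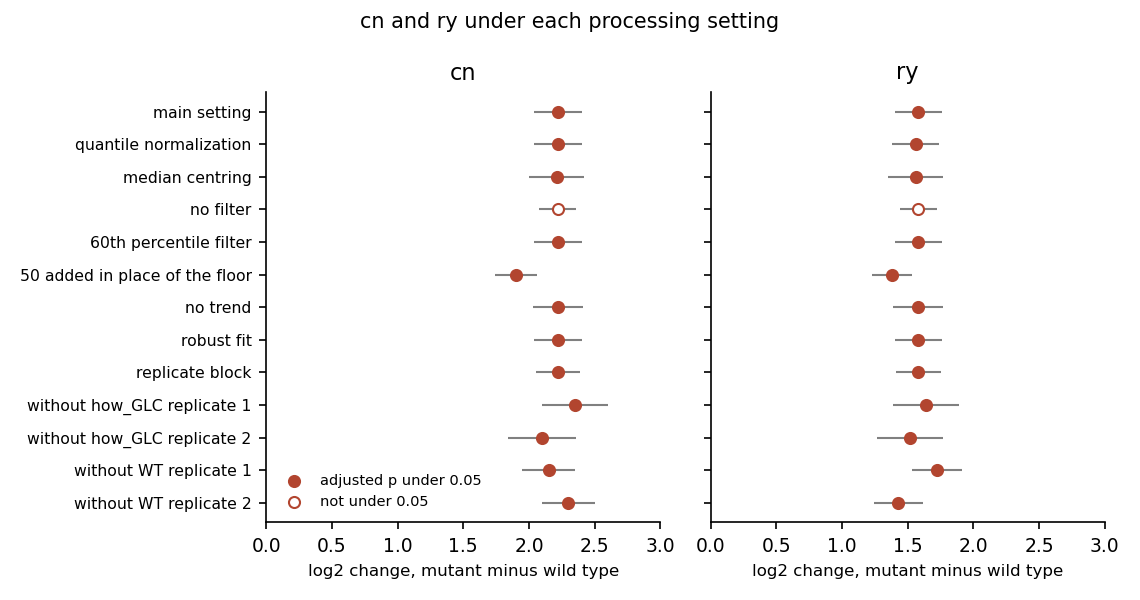
Log2 change of *cn* (left) and *ry* (right), how germline-clone mutant minus wild type, under the main setting and 12 others; points are limma estimates, bars are SE, and filled points have an adjusted p under 0.05. All 13 estimates lie between 1.90 and 2.35 for *cn* and between 1.38 and 1.72 for *ry*, and the open point is the fit with no filter on dim probe sets.

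The rest of the pigment and purine pathways was described with 7 lists, which share some genes. Of 92 genes of these lists with a named probe set, 62 were tested: 4 rose, 0 fell and the median log2 change was 0.07 (limma). At an unadjusted p under 0.05, 10 lay higher and 4 lower, and 16.4% of all 6855 genes tested lay past that level in either direction. The 4 were *cn*, *ry* and, from purine metabolism, *Adgf-A* and *Prat2*. Without the genes described above, 2 of 57 were called, or 3.51%, which is close to the 3.24% of all genes tested, and their median was 0.05.

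In the ommochrome list, 4 of 6 genes had a named probe set and 2 were tested. *cn* rose, and *KFase*, which encodes the kynurenine formamidase acting just before it, had 64.7 and 93.4 in mutants, against 80.8 and 76.7 in wild type, with a log2 change of -0.02 ± 0.33 (SE). *cd* (*cardinal*), which acts in the last step to the pigment, was dim, with 12.1 and 9.18 in mutants, against 9.85 and 10.8 in wild type. Of the other ommochrome genes, then, only *KFase* could be tested beside *cn*, and its change lay within its error.

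In the pteridine list, 9 of 13 genes with a named probe set were tested, 1 rose (*ry*), 0 fell, and the median was -0.15. *cl* (*clot*), which acts on the way to drosopterins, had 359 and 335 in mutants, against 511 and 506 in wild type, a log2 change of -0.55 ± 0.15 (SE) that did not pass (limma adjusted p = 0.122). *Pcd* and *Dhpr*, which recycle the tetrahydrobiopterin cofactor, changed by 0.49 ± 0.27 and -0.23 ± 0.23 (SE), also short of the threshold. *Pu* (*Punch*), the GTP cyclohydrolase gene at the head of the pathway, was listed at 0.917 and 0.76 in mutants, against 7.56 and 14.8 in wild type. Those mutant signals lie below the floor of 3.38 applied before log2, and *Pu* was not tested.

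Xanthine dehydrogenase needs a sulfurated molybdenum cofactor. Of the 8 genes with a named probe set in the list of that cofactor and its enzymes, 2 were bright enough to test. *ry* rose, and *mal* (*maroon-like*), which encodes the sulfurase that activates the enzyme, had 84.1 and 131 in mutants, against 167 and 142 in wild type, a log2 change of -0.55 ± 0.29 (SE; limma adjusted p = 0.402). The aldehyde oxidase genes *AOX1*, *AOX2*, *AOX3* and *AOX4*, relatives of *ry* that share the cofactor, were all too dim to test. *AOX1* had 17.8 and 21.1 in mutants, against 33.6 and 22.6 in wild type.

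In purine synthesis, salvage and breakdown, 18 of 21 genes with a named probe set were tested, with a median log2 change of 0.20. Of the 18, 3 rose, *ry* among them, and 0 fell, where 1.87% of all genes tested were called higher. Without *ry*, 2 of 17 were called. At an unadjusted limma p under 0.05, 5 lay higher and 0 lower, where 16.4% of all genes tested lay past that level in either direction. *Prat2*, which encodes an amidophosphoribosyltransferase for the committed step of purine synthesis, had 433 and 467 in mutants, against 248 and 190 in wild type. Its log2 change was 1.05 ± 0.19 (SE; limma adjusted p = 0.0302). *Prat*, the other gene for that enzyme, had 413 and 364 in mutants, against 485 and 424 in wild type, and a log2 change of -0.22 ± 0.17 (SE; limma adjusted p = 0.57).

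*Adgf-A*, which encodes a secreted adenosine deaminase, had 367 and 236 in mutants, against 61.9 and 112 in wild type. The means were 301 ± 92.3 in mutants and 86.8 ± 35.2 in wild type (SD, n = 2 each), and the log2 change was 1.82 ± 0.34 (SE; limma adjusted p = 0.0331). The intracellular *Ada* changed by 0.17 ± 0.35 (SE) and *Adgf-D* by -0.77 ± 0.42 (SE), and neither passed. The calls for *Prat2* and *Adgf-A* were less stable than those for *cn* and *ry*: each was lost under 5 of 12 settings. Both were lost without the filter, without the trend and without either mutant array; *Prat2* was also lost without wild-type array 2 and *Adgf-A* without wild-type array 1. *Adsl*, *Paics* and *Gart*, which act in later steps of purine synthesis, changed by 0.38, 0.44 and 0.31 on the log2 scale and did not pass, and *bur*, which encodes GMP synthetase, by -0.02.

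Pigment granules are built by the vesicle trafficking machinery of lysosomes. Of 14 tested trafficking genes 0 passed in limma (3 at an unadjusted p under 0.05, where 16.4% of all genes tested had one), with log2 changes from -0.77 to 0.72 and a median of 0.19. The smallest p-values of that list belonged to *cm* (*carmine*), a subunit gene of the AP-3 adaptor, and *lt* (*light*), the Vps41 gene. *cm* had 558 and 539 in mutants, against 366 and 392 in wild type (log2 change 0.53 ± 0.15, SE; limma adjusted p = 0.125). *lt* had 324 and 532 in mutants, against 318 and 200 in wild type (log2 change 0.72 ± 0.30, SE; limma adjusted p = 0.289). For *rb* (*ruby*), *cm*, *or* (*orange*) and *g* (*garnet*), the subunit genes of AP-3, the log2 changes were 0.40, 0.53, 0.19 and -0.77. Their SE were 0.20, 0.15, 0.18 and 0.68. The mutant arrays of *g*, at 17.4 and 76.4, lay on either side of the wild-type arrays, at 58.4 and 65.9. Its dimmer probe set, which did not pass the filter, had a log2 change of 0.70, so the direction of *g* was left unsettled.

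Of 11 tested genes for ABCG-type transporters, the family of White, Scarlet and Brown, 0 passed in limma. At an unadjusted p under 0.05 there were 3, where 16.4% of all genes tested lay past that level. Of the 11, 9 lay above 0, and their median was 0.20, against 0.00 over all genes tested. *CG5853* had 159 and 185 in mutants, against 294 and 267 in wild type (log2 change -0.71 ± 0.20, SE; limma adjusted p = 0.122). *CG11069* had 475 and 451 in mutants, against 287 and 353 in wild type (log2 change 0.54 ± 0.17, SE; limma adjusted p = 0.175). *snu* (*snustorr*), a transporter gene needed for the cuticle barrier, was left out by the filter, with 5.57 and 4.93 in mutants, against 67.0 and 88.1 in wild type. Its signals thus exceeded 39.5 in wild type alone.

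In cuticle melanin and tanning, the pathway in which *y* acts, 0 of 9 tested genes passed in limma. At an unadjusted p under 0.05 there was 1, where 16.4% of all genes tested lay past that level. Of the 9, 7 lay below 0, and their median was -0.22, against 0.00 over all genes tested. *yellow-e3* and *yellow-d*, relatives of *y*, changed by -0.37 ± 0.16 and -0.91 ± 0.44 (SE; limma adjusted p = 0.294 and 0.366). *ple*, the tyrosine hydroxylase gene, had 123 and 43.6 in mutants, against 64.5 and 101 in wild type, and its groups overlapped. *t* (*tan*), which encodes a hydrolase that returns dopamine from its stored conjugate, was too dim to test, with 7.83 and 5.45 in mutants, against 70.2 and 27.1 in wild type. The genes *KFase*, *cd*, *cl*, *Pcd*, *Dhpr*, *Pu*, *mal*, *AOX1*, *Prat*, *Ada*, *Adgf-D*, *Adsl*, *Paics*, *Gart*, *bur*, *rb*, *or*, *g*, *snu*, *ple* and *t* were named for their place in the pathways after their values were seen.

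**Figure D3:**
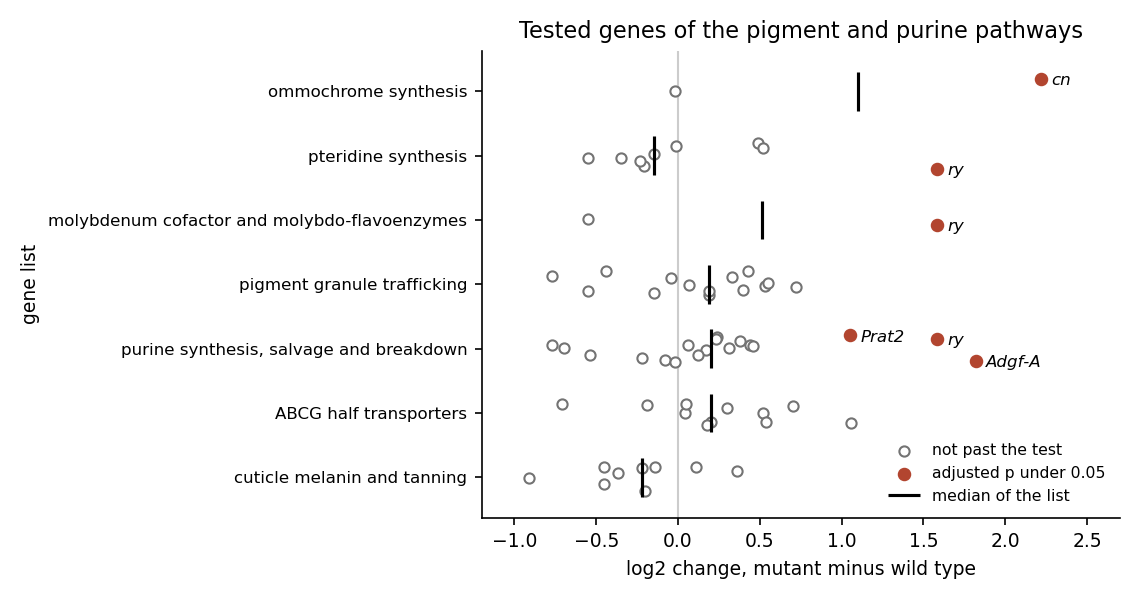
Log2 change, how germline-clone mutant minus wild type, of the tested genes in 7 pathway lists; each point is a gene, filled where its limma adjusted p is under 0.05, black lines are list medians, and points are spread vertically for legibility. *cn*, *ry* (in 3 lists), *Prat2* and *Adgf-A* are filled, at 2.22, 1.58, 1.05 and 1.82.

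The last question was whether genes beside *ry* and *cn* on the chromosome differed as well. *ry* lies on 3R, the arm that also carries *how*, and *cn* on 2R; 1.67% of 1672 tested genes on 3R and 2.24% of 1381 on 2R were called higher. Of the 10 tested genes nearest to *ry*, 5 on each side, limma called 2 higher, *Hsc70-2* and *CG7966*. Both passed the filter on dim probe sets only through their mutant signals, so their count is a description and supports nothing about the region. *Hsc70-2*, a heat shock cognate gene and the third tested gene on the side of higher coordinates, had 436 and 459 in mutants, against 15.1 and 18.6 in wild type, a log2 change of 4.74 ± 0.30 (SE; limma adjusted p = 0.000543). *CG7966*, the next tested gene, had 123 and 116 in mutants, against 28.1 and 25.4 in wild type. Its log2 change was 2.16 ± 0.37 (SE, limma adjusted p = 0.0222). Both had wild-type signals under 39.5, and with the filter at the 60th percentile neither was tested and 0 of 6 neighbours were called. The call for *CG7966* was lost without any 1 array, and with 50 added to each signal the log2 change of *Hsc70-2* was 2.90 and that of *CG7966* 1.14.

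The nearest tested genes on either side of *ry* were also higher on both mutant arrays, without passing the test. *l(3)87Df* had 776 and 996 in mutants, against 403 and 579 in wild type (log2 change 0.86 ± 0.21, SE; limma adjusted p = 0.0889). *CG11668* had 136 and 93.2 in mutants, against 50.8 and 47.0 in wild type (log2 change 1.21 ± 0.34, SE; limma adjusted p = 0.128). *snk*, which encodes a protease of dorsoventral patterning, changed by 0.30, *CG7488* by 0.26, *pic* by 0.15, *CtBP* by -0.02, *CG8031* by -0.24 and *CG7518* by -0.24. Mutant arrays lay above wild-type arrays for 6 of the 10 neighbours and below them for 2. Over all genes tested the shares were 24.4% and 23.4%. The 6 include *Hsc70-2* and *CG7966*, which passed the filter only through their mutant signals. This count is therefore also a description and supports nothing about the region.

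Around *cn*, a set added after its values were seen, 0 of 10 neighbours passed in limma (0 at an unadjusted p under 0.05), with log2 changes from -0.55 to 0.67 and a median of 0.17. Mutant arrays lay above wild-type arrays for 4 of the 10 and below them for 1. The nearest tested genes on either side of *cn* were *CG46385*, at -0.55 ± 0.28, and *CG12825*, at 0.67 ± 0.32 (SE). Whether the surroundings of *ry* and *cn* differ was not tested.

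**Figure D4:**
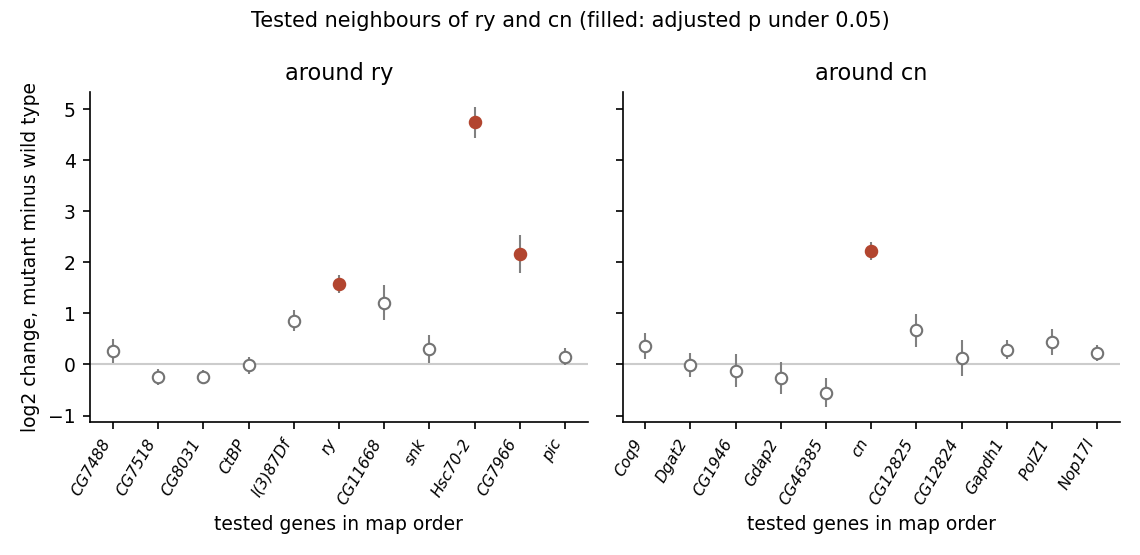
Log2 change, how germline-clone mutant minus wild type, of *ry* (left) and *cn* (right) and of the 5 nearest tested genes on each side, in map order with even spacing; points are limma estimates, bars are SE, and filled points have an adjusted p under 0.05. *Hsc70-2* at 4.74 and *CG7966* at 2.16 lie on 1 side of *ry* at 1.58, while the neighbours of *cn* lie between -0.55 and 0.67.

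The genes whose signals followed *ry* most closely over the 4 arrays were found by the root mean square difference of log2 signal, each probe set being centred on its own mean. They were *Lsd-2*, a lipid droplet gene, *CG3348*, *PCB*, the pyruvate carboxylase gene, *Grx1*, a glutaredoxin gene, and *sens*, a zinc finger gene of sensory organ precursors, with differences of 0.096, 0.099, 0.103, 0.106 and 0.108. *Lsd-2* had 339 and 327 in mutants, against 110 and 103 in wild type. *sens* had 396 and 350 in mutants, against 138 and 117 in wild type. All 5 were called higher in limma, but these calls were lost under some settings, the fit with no filter among them: *CG3348* and *PCB* under 5 of 11, with any 1 array left out, *Lsd-2* under 3 of 12, without either mutant array, and *Grx1* and *sens* under 2 of 12, without mutant array 1. With 4 arrays, genes raised by about as much as *ry* resemble it, so the 5 calls follow largely from how the genes were chosen. *cn* itself stood only 154th of 7445 probe sets. For *cn*, added after its values were seen, the closest was *Saf-B*, with 1199 and 1138 in mutants, against 276 and 268 in wild type and a difference of 0.146, and next to it *CG7966*, the neighbour of *ry*, with 0.157.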

How the data were processed

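The deposited table holds 1 intensity per probe set and array on a linear scale, the signal of MAS5 per the submitters' processing notes, which give no version or settings. The arrays shared a mean of 250.04 without the highest and lowest 2% of signals, so they had been scaled before deposit. Signals under the 5th percentile (3.38) were set to it, log2 was taken, 44 of 14010 probe sets were left out as controls, and 8380 of 13966 at or above the 40th percentile of mean log2 signal (39.5) were tested with limma 3.58.1 in R 4.3.3 (mean-variance trend; 2 residual and 5.80 prior degrees of freedom; adjustment over the 8380). Detection calls were not used here, so dim signals carry no bound. Symbols come from the platform's annotation, brought up to date through RefSeq's genes of assembly Release 6 plus ISO1 MT by Entrez ID (12394 of 12443 probe sets with 1 symbol matched); map order is that assembly's. No sequences are shown.

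The members, lists and tests were chosen with earlier results of these data known. Named genes are all members, called genes of each list or else its 2 with the smallest p, 10 neighbours of *ry* and the 5 genes most like it. With 2 arrays a group and pooled RNA, p-values measure the spread between these pools. The fit was tested on simulated data. Results were recomputed, where their probe sets passed the filter in use, with each array left out and with replicate number as a block. Other settings were quantile normalization or centring on the median, and a filter at the 60th percentile (135) or none. Further settings added 50 instead of a floor, left out the trend or used a robust fit. For *bw* and the count of members alone, the mean of a gene's tested probe sets was also used. For *bw* that mean holds only the brighter probe set.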

Additional observations from a re-analysis of the deposited data

How the results depend on the processing

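Of the 5 tested pigment and purine genes, 2 (*cn* and *ry*) were called under 12 of 13 alternatives and 0 with no filter. Among the 13, the mean of a gene's tested probe sets could not move a member's log2 change. The 5 tested members had 5 tested probe sets in all, so nothing was averaged. With no filter, *cn* at 2.22 (limma adjusted p = 0.11) and *ry* at 1.58 (adjusted p = 0.122) missed the threshold along with every other gene. In that limma fit 0 of 10844 genes passed, the smallest adjusted p was 0.0891 and 1440 had an unadjusted p under 0.05. The log2 change without any 1 array was 2.10 to 2.35 for *cn* and 1.43 to 1.72 for *ry*. That of *y*, not called, was -1.03 to 1.26, and among uncalled neighbours of *ry* that of *CtBP* was -0.18 to 0.14 (0.00 with quantile normalization) and that of *pic* -0.04 to 0.34. Called pathway genes, 4, were 0 with no filter, 2 without the trend (*cn* and *ry*), 8 with the replicate block (adding *cl*, *cm*, *CG5853* and *CG11069*) and 2 to 3 without any 1 array; called neighbours of *ry*, 2, were 0 when the filter was dropped, 0 with the 60th percentile filter, which left 6 to test, 3 with the replicate block (adding *l(3)87Df*) and 1 without any 1 array (*Hsc70-2*). Called genes over the whole array, 222, were 0 with no filter, 82 without the trend, 680 with the replicate block and 76 to 127 without any 1 array (mutant array 1 or 2 left out, 104 and 76; wild-type array 1 or 2 left out, 127 and 119). The cause of these moves was not tested; leaving out an array leaves fewer samples, and the spread of its lone partner is taken from the other group. No label ties arrays of 1 replicate number to a common batch. Same-numbered arrays deviated from their group means with a correlation of 0.183, and with the replicate block *cn* (2.22) and *ry* (1.58) stayed called.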
